A study of Mus musculus with 8 samples.

Results

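The sites described here are gene promoters at which FGFR1 was called after retinoic acid (RA) and not before it, together with the nuclear receptors RXR and Nur77. They were taken from the peaks of the second FGFR1 library from RA-treated cells. A peak was kept where it shared at least 1 bp with a peak of the first FGFR1 library in RA, of RXR in RA and of Nur77 in RA. It also had to share no base with an FGFR1 peak from untreated cells, and to overlap by at least 20 bp the stretch 1000 bp either side of an annotated transcript start. This left 633 of the 14082 peaks. Of the 14082, 11885 lay at a promoter, 7355 of these were shared with the first FGFR1 library, 4829 of these had no FGFR1 peak before RA, and 1389 of these had RXR in RA.

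All cells came from E14Tg2a, a line of mouse embryonic stem cells, used between passages 37 and 40. The embryonic stem cells (ESCs) grew with leukemia inhibitory factor (LIF). The neuronal cells (NCs) were monolayers without LIF that received 1 µM RA for 48 h. Chromatin immunoprecipitation and sequencing (ChIP-seq) gave 8 libraries: FGFR1 (antibody ab10646), RXR (SC-774) and Nur77 (SC-5569) in both states and the histone variant H3.3 (ab62642) in NCs. FGFR1 in NCs had 2 libraries, called replicates 1 and 2 below, and every other group had 1. Cells of several plates were pooled for each chromatin preparation, no source used here says whether the libraries came from separate cultures, and no treatment or deletion other than RA and the removal of LIF separated the groups. Peak lists hold no transcript levels, so the labelled cell types were not checked against their markers here. FGFR1 thus had 1 library in ESCs against 2 in NCs, and each receptor 1 against 1, so the only spread between libraries was that of a single pair, and no test between ESCs and NCs was run.

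FGFR1 is a receptor tyrosine kinase for fibroblast growth factors. A part of it is found in the nucleus (nFGFR1), where it binds the acetyltransferase CBP, a partner of the transcription factor CREB. RXR pairs with the retinoic acid receptors and with the orphan receptor Nur77, and the DNA sites of these receptors are built from the hexamer AGGTCA: a direct repeat spaced by 5 bp for RXR with a retinoic acid receptor, and AAAGGTCA, the NBRE, for Nur77 alone. Most mammalian promoters lie in CpG islands, stretches rich in CG dinucleotides, and H3.3 is the histone H3 variant put into chromatin outside DNA replication, often near starts of active genes.

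The stretches printed next are from the reference genome (RefSeq GRCm38.p6, the build mm10), plus strand, 5′ to 3′, and lie inside FGFR1 peaks of the set but outside all annotated exons. They show the strongest site of the set, sites with the words of ubiquitous promoter factors, and sites with the receptor hexamer AGGTCA. They are examples and not typical of the set, as 539 sites (85.2%) held none of 5 such factor words around the summit. At Mrpl4 and Atf1 the AGGTCA words lay outside the RXR and Nur77 peaks in RA whose values are given below. The cAMP response element at Rpl27a likewise lay outside its RXR, Nur77 and FGFR1 replicate 1 peaks in RA. At Rpl27a and Mrpl4 the FGFR1 summit of replicate 2 was outside the printed stretch. Capitals mark an alternating purine-pyrimidine tract of 31 bp in the first, the NRF1 word GCATGCGC in the second, the E-box CACGTG, the ETS word CCGGAAGT, the CCAAT box and the CTCF word CCACNAGGG in the third, a GC box and the cAMP response element TGACGTCA in the fourth, AGGTCA in the fifth, and a GC box and AGGTCA in the last. Words were marked on either strand.
1700025G04Rik, chr1:152090481-152090580: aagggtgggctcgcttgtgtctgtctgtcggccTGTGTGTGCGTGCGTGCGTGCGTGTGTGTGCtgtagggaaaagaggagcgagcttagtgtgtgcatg
Ints3, chr3:90433729-90433828: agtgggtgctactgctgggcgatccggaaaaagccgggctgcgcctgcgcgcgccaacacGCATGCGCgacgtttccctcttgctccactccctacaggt
Cfdp1, chr8:111854338-111854437: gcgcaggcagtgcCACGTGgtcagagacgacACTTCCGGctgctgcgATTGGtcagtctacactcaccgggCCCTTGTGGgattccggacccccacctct
Rpl27a, chr7:109519047-109519146: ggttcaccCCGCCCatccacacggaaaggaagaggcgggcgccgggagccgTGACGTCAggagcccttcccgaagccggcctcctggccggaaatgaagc
Mrpl4, chr9:21002998-21003083: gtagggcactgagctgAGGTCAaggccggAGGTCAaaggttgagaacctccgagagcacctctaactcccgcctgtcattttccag
Atf1, chr15:100227625-100227724: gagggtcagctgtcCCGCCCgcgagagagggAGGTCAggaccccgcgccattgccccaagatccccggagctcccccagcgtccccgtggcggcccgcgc

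The strength of a peak is given below as the −log10 p that the peak caller MACS2 assigned to its summit, its highest point. The list limit was a p of 1e-05. The fold and −log10 p in the lists were solved for the number of fragments at each summit. The sites were chosen by the FGFR1, RXR and Nur77 peaks in RA, so the values of these are descriptions. Over the 633 sites, which were selected on these calls, −log10 p ran from 6.35 to 103 with a median of 25.3 in FGFR1 replicate 2, and from 5.87 to 57.9 with a median of 15.7 in replicate 1. For RXR in RA the range was 5.03 to 29.4 with a median of 10.0, and for Nur77 in RA it was 5.24 to 32.6 with a median of 10.6. A median site rested on 31 and 14 fragments in FGFR1 replicates 2 and 1, 9 for RXR and 10 for Nur77. The inferred background of these libraries was 6.78, 4.16, 1.87 and 3.82 fragments per kb, so neither fragments nor −log10 p rank the proteins by occupancy. Within its own list, where the strongest peak is at the top, the median site stood 37.2% of the way down for FGFR1 replicate 2 and 20.5% for replicate 1. It stood 65.4% of the way down for RXR in RA and 55.4% for Nur77 in RA.

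**Figure D1:**
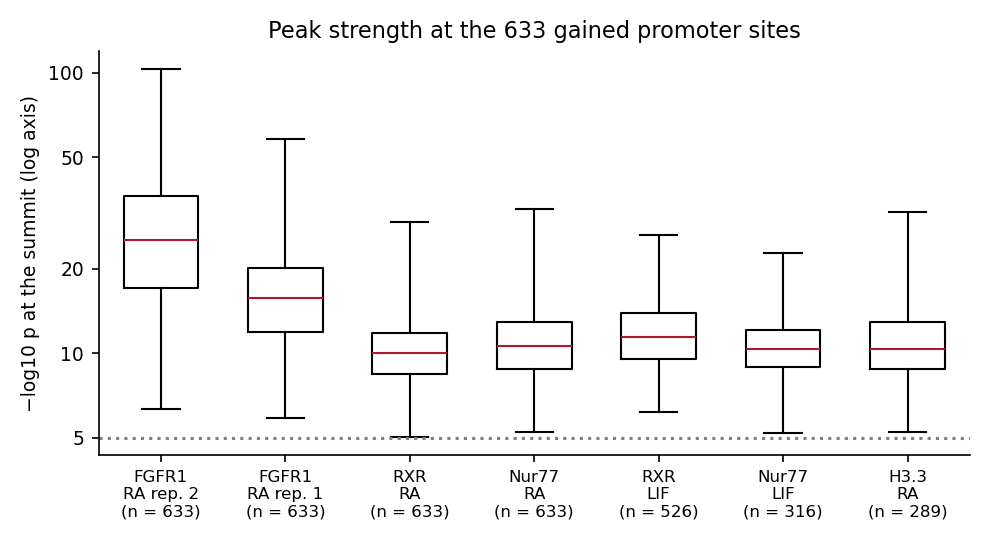
−log10 p at the summit (log axis) of the peaks at the gained promoter sites in each library that called one, with n the number of sites. Boxes span the quartiles, red lines are medians, whiskers reach the lowest and highest site, and the dotted line is the list limit. FGFR1 replicate 2 has the highest values, with a median of 25.3, while the medians of the receptors and of H3.3 lie between 10.0 and 11.5.

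Across the 633 sites, Spearman's rho of −log10 p was 0.202 between the FGFR1 replicates, 0.242 between RXR and Nur77, and 0.271 and 0.293 between FGFR1 replicate 1 and RXR or Nur77. For replicate 2 it was 0.0692 with RXR and 0.158 with Nur77. Each site had to have a called peak in all 4 libraries, which removes low values and limits rho. The sites also share libraries and base composition, and they are not replicates.

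The 4 RA summits of a site were not the same. The sites were chosen for peaks that overlap the FGFR1 peak of replicate 2, which limits how far apart the summits can lie. Measured from the FGFR1 summit of replicate 2, the median offset was 68 bp for replicate 1, 84 bp for RXR and 82 bp for Nur77. RXR had its summit within 100 bp of FGFR1 at 57.2% of the sites and Nur77 at 58.1%, against 63.8% for the other FGFR1 library. The 4 summits spanned between 8 and 665 bp at a site, with a median of 143 bp, and 207 sites (32.7%) had all of them within 100 bp while 91 had them spread over more than 300 bp.

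At its edges the rule rested on a few bases. The site of Mcfd2 shared 2 bp with FGFR1 replicate 1, that of Ick 3 bp with RXR and that of Slc35a5 2 bp with Nur77. Just outside stood Tcta, whose nearest RXR peak was 1 bp away, and Pard6b, whose nearest Nur77 peak was 3 bp away. In all, 761 gained promoter peaks lacked RXR alone, 41 of them with an RXR peak within 100 bp, and 756 lacked Nur77 alone, 54 of them with a Nur77 peak within 100 bp. A further 2679 gained promoter peaks had neither receptor and are called FGFR1-alone sites below. On the side of LIF, the site of Fxr2 was kept with an FGFR1 peak 8 bp away and Seh1l was left out for an overlap of 9 bp. The number of sites was 292 where summits within 100 bp were required, 315 at a −log10 p of at least 10 in every list, and 124 where each list was limited to as many peaks as the shortest one used. It was 1074 when FGFR1 replicate 2 was left out and replicate 1 alone supplied the FGFR1 peaks.

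Before RA, most of the sites already had a peak of at least one receptor. RXR was called in LIF at 526 of the 633 sites (83.1%, exact Clopper-Pearson 95% interval 79.9 to 85.9), where all 11885 promoter peaks of FGFR1 replicate 2 gave 50.6%. Nur77 was called in LIF at 316 (49.9%, 46.0 to 53.9), where all promoter peaks gave 26.5%. These intervals, like all others here, cover counting error only, and neighbouring peaks are not independent. At FGFR1-alone sites the shares were 48.5% for RXR and 19.9% for Nur77. At 855 promoter peaks that had both receptors in RA and an FGFR1 peak in LIF too, called retained sites below, they were 94.2% and 72.6%. The gained sites thus lay between FGFR1-alone and retained sites, and their intervals overlapped neither. Every list was also limited to its strongest 11378 peaks, as many as the shortest list used to choose the sites held. RXR in LIF was then at 47.6% of the 124 sites left and Nur77 at 30.6%, where all promoter peaks gave 21.0% and 12.6%.

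**Figure D2:**
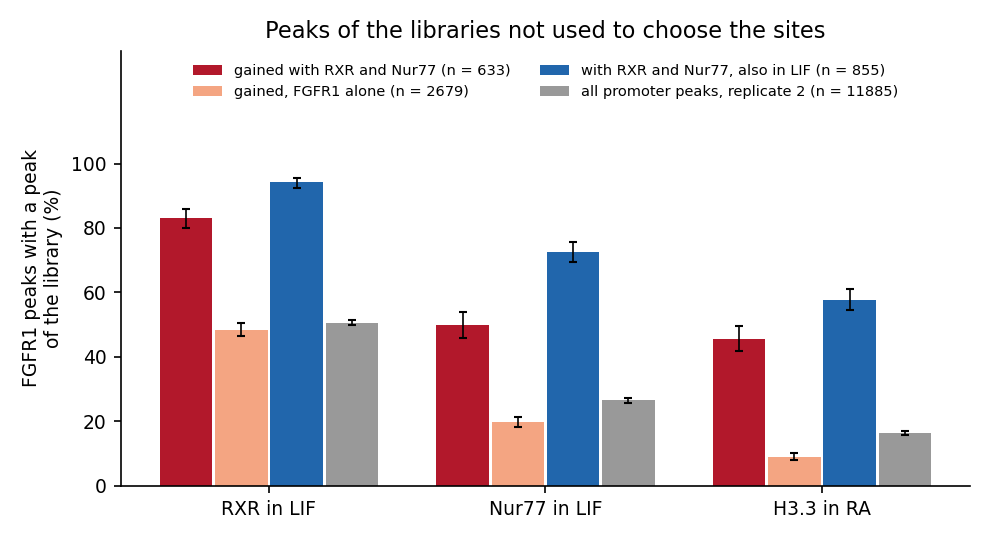
Share of FGFR1 promoter peaks (%) with a peak of RXR in LIF, Nur77 in LIF or H3.3 in RA, for the gained sites with both receptors, gained FGFR1-alone sites, sites with both receptors also bound in LIF, and all promoter peaks. Error bars are exact 95% intervals of counting error. The gained sites (83.1%, 49.9% and 45.7%) lie between FGFR1-alone and retained sites in all 3 libraries.

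Taken by combination, 279 sites (44.1%) had both receptors in LIF, 247 (39.0%) RXR alone and 37 (5.85%) Nur77 alone. The remaining 70 (11.1%, 8.72 to 13.8) had neither, against 44.7% of FGFR1-alone sites and 2.57% of retained sites. The RXR library from LIF was the deepest and that from RA among the shallowest, with 7.09 and 1.87 background fragments per kb, so RXR strength before and after RA cannot be told apart from depth. The LIF peaks had a median −log10 p of 11.5 for RXR and 10.4 for Nur77, beside 10.0 and 10.6 for the RA peaks of the same proteins over all 633 sites.

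The 70 sites with no receptor peak in LIF had median −log10 p values of 21.9 and 13.5 in the FGFR1 replicates, 9.87 for RXR and 10.3 for Nur77 in RA. At the 279 sites with both receptors in LIF these were 26.3, 16.9, 10.2 and 11.0. The 5 of the 70 whose weakest RA peak was strongest were at Eif4h, Tmem147, Ccdc62, Ndufa8 and Gm16008. At Eif4h, which encodes a cofactor of the translation helicase eIF4A, −log10 p was 16.5 and 17.4 for FGFR1, 14.7 for RXR and 12.6 for Nur77. At Ndufa8, a subunit of respiratory complex I, these values were 24.2, 19.6, 18.3 and 11.97. An FGFR1 LIF peak lay 100 bp from the site of Eif4h and 15 bp from that of Ndufa8, without overlap. Ndufa8 also had a weak H3.3 peak of 6.22 in RA.

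H3.3 in NCs, which the choice of sites did not use, was called at 289 of the 633 sites (45.7%, 41.7 to 49.6), where all promoter peaks gave 16.3%. FGFR1-alone sites gave 9.03% (7.97 to 10.2) and retained sites 57.8%. The H3.3 library was the shallowest of the 8, at 1.27 background fragments per kb, so a site without a peak there was not shown to lack H3.3. Peak width also differed, with a median of 386 bp here, 322 bp at FGFR1-alone sites and 452 bp at retained sites. With every peak replaced by 100 bp either side of its summit, the H3.3 shares were 39.2%, 7.50% and 49.8% in the same order, those of RXR in LIF 73.8%, 41.5% and 85.6%, and those of Nur77 in LIF 40.0%, 16.3% and 61.3%. The order of the 3 kinds of site was as before. Median −log10 p in FGFR1 replicate 2 had that order too, at 25.3 here, 21.2 at FGFR1-alone sites and 37.6 at retained sites. FGFR1-alone sites were also selected to lack receptor peaks in RA, and gained and retained sites to have them. The part of peak strength and of this selection in the shares was not tested.

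H3.3 was most frequent where both receptors had been present in LIF, at 161 of 279 sites (57.7%). It was called at 36.8% of sites with RXR alone in LIF, 35.1% of those with Nur77 alone and 34.3% of those with neither. All 3 peaks were present at 161 sites (25.4%) and none of them at 46 (7.27%). Sites with H3.3 had somewhat higher medians of −log10 p than those without it: 26.3 and 23.8 in FGFR1 replicate 2, 17.9 and 13.9 in replicate 1, 10.7 and 9.59 for RXR, and 11.2 and 10.1 for Nur77. Their median widths were 384 and 392 bp. The part of library depth in these shares was not tested.

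The sites with the highest H3.3 were at 1700025G04Rik, Ankrd26, Mrpl17, Smarcb1 and Aatf. At Ankrd26, a protein of the centriole, −log10 p was 25.4 for H3.3, while FGFR1 was at 48.8 and 37.9, RXR at 14.7 and Nur77 at 27.02. RXR was at 12.4 there in LIF, and Nur77 had no LIF peak. At Mrpl17, a protein of the mitochondrial ribosome, H3.3 was at 24.7, FGFR1 at 64.4 and 19.3, RXR at 11.0 and Nur77 at 17.2, with LIF peaks of 15.4 for RXR and 8.54 for Nur77. Smarcb1, a core subunit of the SWI/SNF chromatin remodeller, had an H3.3 peak of 20.6 with FGFR1 at 43.5 and 21.5 and both receptors in both states. Aatf, a nuclear protein of ribosome biogenesis and transcription, had 19.6 for H3.3 and both receptors in both states as well.

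The background of the FGFR1 library from LIF was 2.71 fragments per kb, below the 4.16 and 6.78 of the RA replicates. At that genome-wide background a peak needed at least 5 fragments, and more where the local background was higher. The counts below use the limit of 5 at every site. Scaling the RA fragments of each site by the background and fragment length of the libraries gave a projection of the number that the LIF library would hold at equal occupancy. Projected from replicate 1 this was 6.18 to 46.4 fragments with a median of 14.4, and all 633 sites reached 5. Projected from replicate 2 it was 2.68 to 31.9 with a median of 9.23, and 561 sites (88.6%) reached 5. From both replicates at once, 245 sites (38.7%) were projected at 10 fragments or more. The projection ran high at the 855 retained sites, which were selected for an FGFR1 LIF peak. Observed over projected fragments there was 0.621 from replicate 1 and 0.839 from replicate 2. Scaled by these ratios, the medians of the gained sites were 8.96 and 7.75 fragments. With this scaling 618 sites (97.6%) reached 5 from replicate 1, 524 (82.8%) from replicate 2 and 513 (81.0%) from both. The sites were selected for a called peak in both RA replicates, which sets a lower limit on the projected fragments, so these counts describe the sites and do not separate depth from a change in occupancy.

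**Figure D3:**
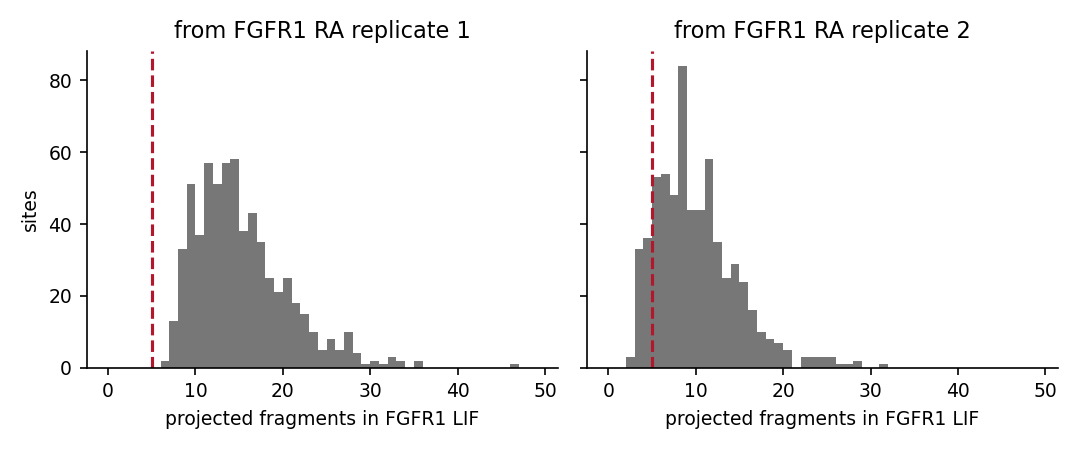
Fragments projected for the FGFR1 LIF library at each gained site, from the FGFR1 RA replicate named above each panel, with sites counted on the vertical axis. The dashed line is the smallest pileup that could be called in that library at its genome-wide background, 5 fragments. All 633 sites reach it from replicate 1 and 561 from replicate 2, without scaling to the retained sites and with the sites selected for a peak in both replicates.

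In LIF, FGFR1 also lay close to some of these sites. A separate FGFR1 LIF peak stood in the same promoter window at 30 sites (4.74%) and within 1000 bp at 29 (4.58%), against 6.42% and 6.49% of FGFR1-alone sites. The median distance to the nearest FGFR1 LIF peak was 44795 bp.

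The sites were chosen for overlap with a window around a start, so their nearness to starts is a description. The FGFR1 summit lay a median of 40 bp from the nearest annotated start, within 100 bp at 480 sites (75.8%), and upstream of it at 250 (39.5%). FGFR1-alone sites were within 100 bp at 70.7% and retained sites at 79.4%. All promoter peaks of FGFR1 replicate 2 had a median of 50 bp, with 69.1% within 100 bp and 41.3% upstream. By annotation 325 summits (51.3%) fell in untranslated exon, 118 (18.6%) outside genes, 94 (14.8%) in coding exon, 56 (8.85%) in intron and 40 (6.32%) in noncoding exon. All promoter peaks gave 46.2%, 19.8%, 13.7%, 13.2% and 7.06% in the same order. A protein-coding gene was in the window of all but 28 sites. At 70 sites (11.1%) coding genes started on both strands, a bidirectional promoter, near the 11.8% of all promoter peaks. FGFR1-alone sites gave 11.7% and retained sites 15.4%.

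**Figure D4:**
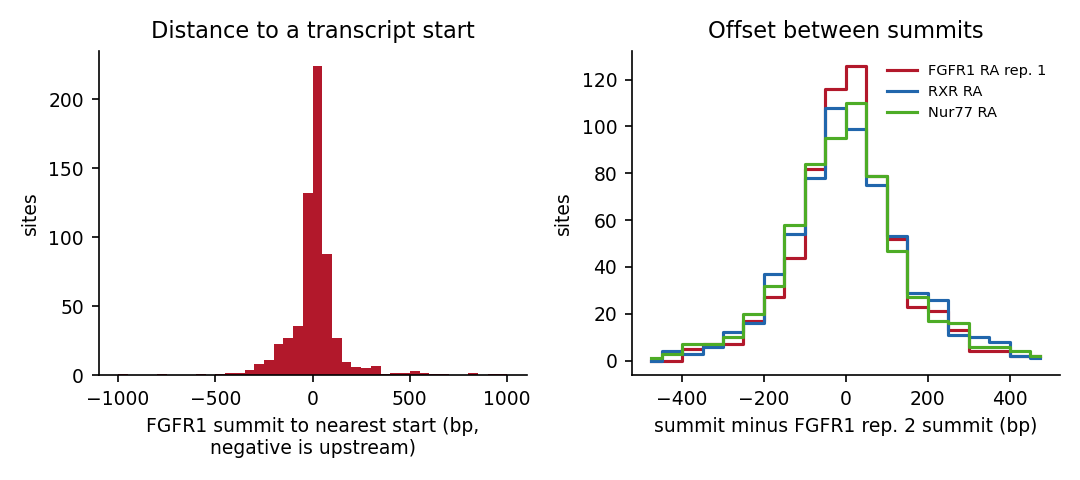
Left, distance in bp from the FGFR1 summit of each gained site to the nearest transcript start, negative upstream. Right, offset in bp of the other RA summits from the FGFR1 replicate 2 summit. Sites are counted on the vertical axes, 480 summits lie within 100 bp of a start, and the 3 offsets centre near 0 with tails on both sides.

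The windows held 808 genes, of which 679 were protein-coding, or 3.10% of all 21938 protein-coding genes. Among the others were 42 antisense and 22 lincRNA genes. Mir5130 lay at the Kctd12 site and the small nucleolar RNA gene Snora3 at the Rpl27a site. Ssh2 and Cd2ap each had 2 sites.

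The strongest site of the set, by its weakest RA peak, was upstream of 1700025G04Rik, at chr1:152090442-152090673 and 406 bp before the start. In RA its −log10 p was 22.3 and 20.8 in the FGFR1 replicates, 29.4 for RXR, 32.6 with Nur77 and 31.9 with H3.3. In LIF RXR reached 20.7 there and Nur77 16.2. Its RXR, Nur77 and H3.3 values in RA were the highest of all 633 sites, with the FGFR1 summit inside the alternating tract printed first above. Such a tract of at least 20 bp occurred under 8 sites (1.26%), and under 0.968% of all promoter peaks.

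Among the other strong sites, Rapgef6, an exchange factor for the GTPase Rap, had the highest value of the 10 for FGFR1 replicate 2. FGFR1 was at 87.6 and 43.1 there, RXR at 17.7, Nur77 at 17.4 and H3.3 at 18.1, with LIF peaks of 15.7 and 15.3 for the receptors. Ints3, a subunit of the Integrator complex that processes small nuclear RNAs, had 33.2 and 34.9 for FGFR1, 16.4 for RXR and 26.2 for Nur77, and no H3.3 peak. Cfdp1, a chromatin protein, had FGFR1 at 48.3 and 29.6, RXR at 15.9, Nur77 at 20.7 and H3.3 at 14.8. Chmp3, of the membrane-cutting ESCRT-III complex, had 32.2 and 24.2 for FGFR1, 17.9 for RXR and 20.04 for Nur77, and RXR alone in LIF. Ccdc93 had 28.1 and 32.2 for FGFR1, 19.97 for RXR and 21.5 for Nur77, and was the one site of the 10 strongest without RXR in LIF. The remaining 4 were at Eno4, Gm37975, Tmcc1 and Fbxl18. The Gm37975 summit lay farthest from a start among the 10, 977 bp upstream, in an intron and with no coding gene in the window. Of the 10 strongest sites, 7 had an H3.3 peak and 6 had both receptors in LIF.

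At the other end, the 5 weakest sites were at Fez2, Aph1c, Cnnm1, Atp8a1 and Yipf5. At Fez2 and Yipf5 RXR in RA was the limiting peak, with −log10 p of 5.03 and 5.47 on 4 fragments each. At Aph1c, a subunit of gamma-secretase, Cnnm1 and Atp8a1 it was Nur77 in RA, with 5.24, 5.36 and 5.39. All 5 had RXR in LIF, at 7.76 to 15.7, and none had an H3.3 peak.

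Of 138 developmental genes in 7 lists (pluripotency, Hox, retinoid, FGF, CREB, neural and mesodermal genes) 2 had a site, Atf1 and Mesp2. That is 1.45%, where all protein-coding genes gave 3.10%, and 2.94% of the 68 that had any promoter peak in FGFR1 replicate 2, where all coding genes with such a peak gave 6.24%. These counts are too small to set the lists apart from coding genes as a whole. FGFR1-alone sites were at 20 of the 138 (14.5%), where all coding genes gave 12.8%. No site was at any of the 15 pluripotency, 39 Hox, 21 retinoid, 19 FGF or 20 neural genes.

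Atf1, a transcription factor of the CREB family, had its site at chr15:100227530-100227795, with the summit 144 bp upstream of the start. FGFR1 was at 34.3 and 35.0, RXR at 15.1 and Nur77 at 11.1 in RA. In LIF RXR was at 12.04 and Nur77 had no peak, and H3.3 was at 14.8 in RA. The FGFR1 summit lies in the last stretch printed above, next to a GC box and an AGGTCA word. Mesp2, a basic helix-loop-helix factor of somite segmentation, had its site at chr7:79811082-79811352, with the summit 504 bp past a start and in coding exon. FGFR1 was at 13.4 and 14.4, RXR at 6.77 and Nur77 at 11.5, with RXR at 11.8 in LIF and no H3.3. Both sites had an RXR peak before RA, and the one at Mesp2 was the weaker in every library but Nur77 in RA.

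Over 11 lists of genes of general cell functions, 42 of 958 genes had a site (4.38%), where all protein-coding genes gave 3.10%. Of the 801 with any promoter peak in FGFR1 replicate 2 it was 5.24%, below the 6.24% of all coding genes with such a peak. The list of translation initiation factors, which also held the kinase gene Eif2ak1, had the highest share, 7 of 55 (12.7%). Its sites were at Eif1a, Eif2ak1, Eif2d, Eif2s2, Eif3e, Eif4b and Eif4h. Eif2s2, the beta subunit of initiation factor eIF2, had FGFR1 at 30.0 and 21.4, RXR at 11.0 and Nur77 at 11.2, and no receptor in LIF. Eif2ak1, a kinase that phosphorylates eIF2, had 33.2 and 15.7, 13.6 and 20.1, with both receptors in LIF and H3.3 at 16.5. The list was not uniform in what it had before RA.

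Mitochondrial ribosomal proteins gave 6 of 75 (8%): Mrpl4, Mrpl9, Mrpl14, Mrpl17, Mrpl20 and Mrpl58. Mrpl4 had FGFR1 at 88.4 and 24.4, RXR at 11.7 and Nur77 at 15.7. The AGGTCA pair printed above lay inside its FGFR1 peak of replicate 2. That pair was outside its peaks of FGFR1 replicate 1, RXR and Nur77 in RA. Cytosolic ribosomal proteins gave 2 of 85 (2.35%), although 84 of the 85 had an FGFR1 promoter peak in replicate 2. Among these, Rpl27a had FGFR1 at 60.8 and 9.76, RXR at 11.7 and Nur77 at 10.9, with both receptors in LIF and no H3.3.

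The proteasome list gave 4 of 48 (8.33%): Psmb4, a subunit of the core, Psmg2, an assembly chaperone, Psmb1 in the window shared with Tbp, and Psmc2 in the window shared with Dnajc2. The respiratory chain gave 4 of 92 (4.35%). Of these Ndufa8, Ndufc2, Ndufv2 and Cox5b, which belong to complex I and cytochrome c oxidase, all 4 had an H3.3 peak, at 6.22 to 9.81. Ndufc2 carried the highest LIF value of Nur77 in the set, 22.8.

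Cell cycle and licensing genes gave 4 of 54 (7.41%). Ccna2, or cyclin A2, had FGFR1 at 60.8 and 15.0, RXR at 12.03, Nur77 at 10.4 and H3.3 at 8.60. Orc1 and Orc4, of the origin recognition complex, had receptors of 8.07 and 9.59 and of 8.37 and 9.79 in RA, both receptors in LIF and no H3.3. Cdk8 was the fourth of this list, and Med13, of the same kinase module of Mediator, was the one site of the 58 RNA polymerase and Mediator genes. Splicing factors gave Srsf5 of 54 genes, and histone lysine methylation gave the demethylase Kdm2b of 41. Zinc finger genes named Zfp gave 12 of 365 (3.29%), and ubiquitin-conjugating enzymes gave 0 of 31, although 27 of them had an FGFR1 promoter peak in replicate 2. A gene list was counted, not tested, and the shares differ by few genes.

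The DNA under the summits was that of CpG islands. In 100 bp around the FGFR1 summit, the GC content had a median of 69% and the ratio of observed to expected CG dinucleotides a median of 0.909. That ratio was above 0.6 at 90.0% of the sites, at 84.4% of FGFR1-alone sites, at 93.4% of retained sites and at 37.3% of the 132629 distinct annotated starts. All promoter peaks of FGFR1 replicate 2 gave 82.3%. In 100 bp flanks centred 400 bp away on each side, the median GC content was 53%.

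Words of promoter factors were counted on either strand in the same 100 bp. The NRF1 word GCATGCGC, printed above at Ints3, was at 31 sites (4.90%, 3.35 to 6.88), with 1.79% (1.32 to 2.37) at FGFR1-alone sites, 4.45% at retained sites, 0.894% at all starts and 0.237% in the flanks. The E-box CACGTG was also at 31 sites (4.90%), with 3.47%, 5.98%, 2.20% and 1.66% in the same order. The ETS word CCGGAAGT was at 3.32%, with 3.06% at FGFR1-alone sites and 1.80% at all starts. The cAMP response element TGACGTCA was at 9 sites (1.42%), with 1.05% at FGFR1-alone sites and 0.645% at all starts, and the YY1 word AGATGGCGG was likewise at 9. All promoter peaks of FGFR1 replicate 2 gave 2.04% for NRF1, 3.37% for the E-box and 2.82% for ETS. They gave 0.960% for the cAMP response element and 1.87% for YY1. Over the 12 words counted, the intervals of gained and FGFR1-alone sites were separate for NRF1 and overlapped for the other 11.

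GC boxes (GGGCGG) were at 28.4% of the sites, near the 28.5% of all promoter peaks of FGFR1 replicate 2, and at 15.6% of all starts. The CCAAT box (CCAAT) and the TATA box were scarcer than at all starts, at 5.85% against 12.2% and 0.316% against 4.16%. All promoter peaks gave 7.70% and 0.842%. The CTCF word was at 1.11%, with 0.724% at all promoter peaks and 0.382% at all starts.

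The hexamer of the receptors was not frequent around the FGFR1 summit. AGGTCA stood in the window at 19 sites (3.00%, 1.82 to 4.65), where all promoter peaks gave 3.43%. It was at 3.36% of FGFR1-alone sites, 3.28% of retained sites, 5% of all starts and 3.79% of the flanks. The NBRE, which contains AGGTCA, was at 1 site (0.158%) and at 0.362% of all starts. A direct repeat of AGGTCA spaced by 5 bp was at none of the 633 sites, which allows a share of up to 0.581% by the exact interval, and at 0.00226% of all starts. These counts describe exact letters in one window and say nothing of looser versions of the sites. The window was centred on the FGFR1 summit of replicate 2. The RXR and Nur77 summits in RA lay a median of 84 and 82 bp from it. Most receptor summits were thus outside the window, and the DNA under them was not searched.

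**Figure D5:**
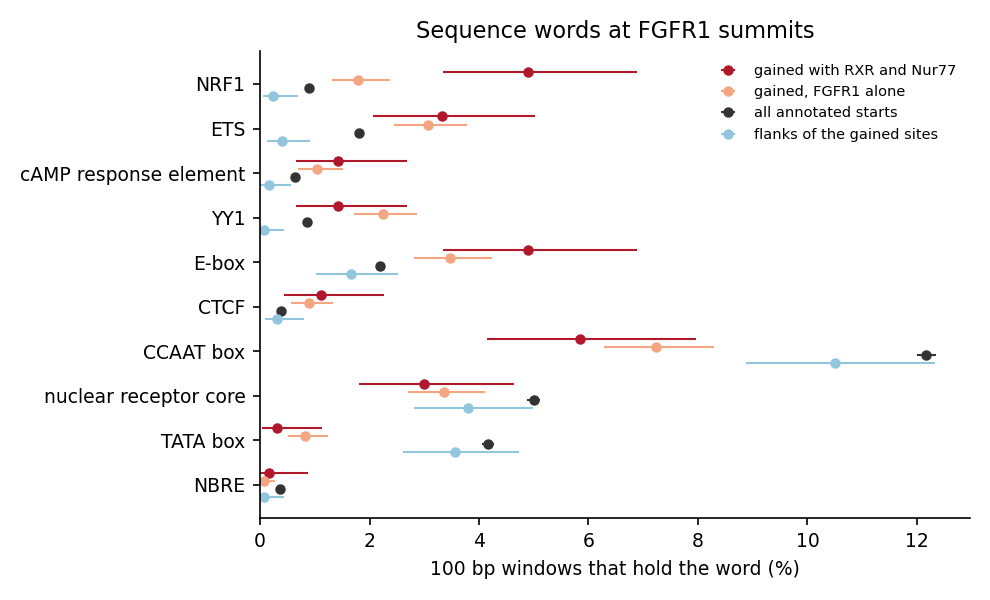
Share of 100 bp windows (%) that hold each exact sequence word on either strand, for the gained sites, FGFR1-alone sites, all annotated starts, and flanks 400 bp away from the gained sites. Bars are exact 95% intervals of counting error. The NRF1 word is at 4.90% of the gained sites and 1.79% of FGFR1-alone sites, and the CCAAT and TATA boxes are most frequent at all starts and in the flanks.

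Of the 31 sites with the NRF1 word, 48.4% had an H3.3 peak, against 45.5% of the others. Their median −log10 p was 25 and 19.5 for FGFR1, 10.2 for RXR and 11.6 for Nur77, against 25.3, 15.5, 9.97 and 10.6 without the word. Most sites, 539 (85.2%), held none of the 5 words for the cAMP response element, NRF1, ETS, YY1 and the E-box, 87 held 1 and 7 held 2 of them.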

How the data were processed

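The authors aligned reads to mm10 with Bowtie 1.0, keeping reads with a single place, and called peaks per library with MACS2 at p 1e-05, with no control library named and no pooling. The deposited fold is a ratio of summit pileup to background with a pseudocount of 1 in both terms. Both −log10 p and −log10 q, as deposited, belong to the summit, and the deposited score is derived from −log10 p. Fold and −log10 p were solved for whole fragments and a background, within 0.002, for every peak, after a check on simulated data. Background per kb served as inferred depth, 1.27 (H3.3) to 7.09 (RXR LIF) over 8 libraries.

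Starts came from 141767 GENCODE M21 transcripts on GRCm38, and sequences from RefSeq. Named sites were the 10 strongest and 5 weakest by their weakest RA peak, the 5 with the highest H3.3, those of developmental lists, up to 4 per other list, and those at the rule's edges. Members and lists were chosen with earlier results of these data known. Python 3.11.15, numpy 2.4.6, pandas 2.3.3, scipy 1.17.1 and pysam 0.24.0 were used. Alternatives were stricter limits, other overlaps, narrower promoters and leaving out either FGFR1 RA library. The values of 1 named site are not reported here.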

Additional observations from a re-analysis of the deposited data

How the results depend on the processing

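Limits of −log10 p of at least 10 left 315 sites, equal list lengths 124 and summits within 100 bp 292. Leaving out an FGFR1 RA library gave 674 (without replicate 1) to 1074 (without replicate 2). The H3.3 share was 37.8% at the −log10 p limit and 65.3% with equal lengths, and 43.6% to 44.97% without a replicate. The RXR LIF share was 68.6% at the −log10 p limit, 47.6% with equal lengths, 79.3% with 50% overlap, 67.5% by summits, 78.5% with 200 bp around the FGFR1 summit (chosen after seeing the data), and 75.1% to 81.9% without a replicate. The Nur77 LIF share was 38.1%, 30.6%, 40.8% by summits, 45.1% with 200 bp around the summit, and 43.4% to 48.5% without a replicate. Fewer peaks in a list leave fewer matches to it by construction. The H3.3 list, with 10634 peaks, was below the equal length of 11378 and was not cut. All promoter peaks at equal lengths gave 17.9% (H3.3), 21.0% (RXR LIF) and 12.6% (Nur77 LIF). At the −log10 p limit they gave 8.16%, 31.3% and 13.9% in the same order. For RXR LIF they gave 46.2% with 50% overlap and 32.9% by summits, and for Nur77 LIF 16.4% by summits. A fold of at least 5, promoters of 500 bp, coding starts and no FGFR1 LIF peak within 1000 bp left 597 to 628 sites, with each share inside its main interval. Leaving out sites with a tract, also chosen after seeing the data, left 625. No paired analysis was possible because each group but FGFR1 RA had 1 library and no test was run. Depth limits what the lists show: a site without a peak in LIF or H3.3 was not shown to be unbound.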

Other observations

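Chromosome X held 1 of the 633 sites, at Smim10l2a, although FGFR1 replicate 2 had 302 promoter peaks there. This is 0.331% of the promoter peaks on X and 5.46% of the 11575 on autosomes. The X peaks of replicate 2 had a median −log10 p of 18.0, against 22.0 on autosomes. They met a peak of FGFR1 replicate 1 at 29.5% against 62.7%, of RXR in RA at 6.62% against 25.7%, and of Nur77 in RA at 5.96% against 26.04%. The same order held in the libraries that the choice of sites did not use: 10.3% against 51.7% for RXR in LIF, 8.94% against 26.97% for Nur77 in LIF and 2.32% against 16.7% for H3.3. The cause of the lower shares on X was not tested.

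Of the 9 sites with a cAMP response element at the summit, 77.8% had an H3.3 peak, against 45.2% of the others. With the ETS word it was 23.8% of 21 sites, against 46.4%. Both were noticed among 5 words compared in this way, on few sites, and were not tested.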
